A study of Mus musculus with 7 samples.

Results

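Colonies of induced pluripotent stem cells (iPSCs) made from Myc-GFP-sorted GC B cells were compared with colonies made from unselected (bulk) GC B cells, over all genes. These are 6 of the 7 sequenced mouse cultures, 3 colonies per source, chosen by the sample titles, and the embryonic stem cell line V6.5 was left out. Both groups came from the spleens of male mice immunized with SRBC 9 days earlier, from B220+ CD38- Fas+ cells. Sorted cells were held for 6 days on a mouse embryonic fibroblast (MEF) feeder layer with cytokines, reprogrammed under doxycycline (Dox) for 10 days and kept another 4 days free of Dox. Each colony was picked by hand, passaged on gelatin alone and pre-plated for 45 min against leftover feeders, then grown in KO-DMEM with FBS and LIF. Each colony is a clone, so a group holds 3 clones rather than a population. The titles name the colonies GC#1 to GC#3 and M#1 to M#3, written here as GC1 to GC3 and M1 to M3. M is read as the Myc-GFP source, since that is the only other source the design text names. The design text names an endogenous Myc-GFP reporter and Dox, but neither the reprogramming transgene nor whether the bulk GC cells carried the reporter. The donor mouse, its age and its strain are not given in the sources used here, nor is it said that colonies came from separate mice. Each p below therefore measures the spread among these colonies, and the source cell cannot be told apart from the donor.

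A germinal center (GC) is the site in a lymphoid follicle where B cells that met antigen divide, mutate their antibody genes and compete for help from T follicular helper cells. The cells that receive this help switch on Myc, a transcription factor of growth and cell division, for a short time, and a Myc-GFP reporter marks them. Reprogramming returns a differentiated cell to a state like that of the early embryo's pluripotent cells, in which a shared set of transcription factors, led by Oct4, Sox2 and Nanog, holds lineage genes at a low level. In culture with serum and LIF such cells are mixed, and small fractions lean towards earlier embryonic or extraembryonic states.

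The 6 libraries held 31505623 to 35728921 counts and 24741 to 25400 detected genes each. Across genes, which are not independent replicates, the correlation of log2 CPM (a gene's counts per 1000000 counts of its library) was 0.983 to 0.99 within a group and 0.977 to 0.983 between groups. A first principal component with 36.9% of the variance set the groups apart. M2 and M3 differed from the other 4 colonies in ways the labels do not give. There, 5 Y-linked genes (Eif2s3y, Uty, Ddx3y, Uba1y and Usp9y) had 0 counts. By counting error alone this allows up to 3 counts, or 0.0904 to 0.0958 CPM. The summed CPM of the 11 Y-linked genes listed was 118 to 139 in GC1 to GC3 and 134 in M1. The pluripotency marker Zfp42 was split alike, at 463, 478 and 468 CPM in GC1 to GC3 and 444, 280 and 253 CPM in M1 to M3. Ehmt2 and Nlrp4f, given below, also set M1 apart from M2 and M3. The pluripotency genes Pou5f1, Sox2 and Nanog were above 350 CPM in every colony. Of the B cell markers, Ms4a1 held at most 2 counts in any library, while Cd79a held 42 to 108 and Cd79b 48 to 79 counts. RNA of the Dox-driven genes and of the cells' own copies is counted together.

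Of 18166 genes with enough counts, 721 differed between M and GC colonies at an edgeR adjusted p under 0.05, 308 higher and 413 lower in M colonies. The share called was 3.97% of the tested genes, or 1.7% higher and 2.27% lower. The median log2 change of all tested genes was 0.00. Most differences were small: 205 of the 721 reached a change of at least 1 on the log2 scale. The 3 M values lay wholly above or wholly below the 3 GC values for 716 of the 721, against 22.1% of all tested genes. Exceptions named below are Ctsl and Peg3. All 721 kept their sign whichever colony was left out, which a lack of overlap between groups all but fixes in advance. Of the 721, 227 stayed past the threshold in each of the 6 leave-outs. The count fell to 412 without GC1, 244 without GC2 and 270 without M3, and it was 373 without both M2 and M3, of which 252 were among the 721. That last fit has 1 M library and takes its spread from the GC colonies. A gene called below held in all 6 leave-outs unless the colony that ended its call is named where the gene's own values are given. Of the called genes named, DESeq2 did not call Tie1, Ehmt2, Podxl, Car4, Ctsl and Peg3, and the voom test of limma did not call Nlrp4f, Muc13, Ctsl, Myo6, Insr, Nr4a1, Sp5 and Slc7a6.

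**Figure D1:**
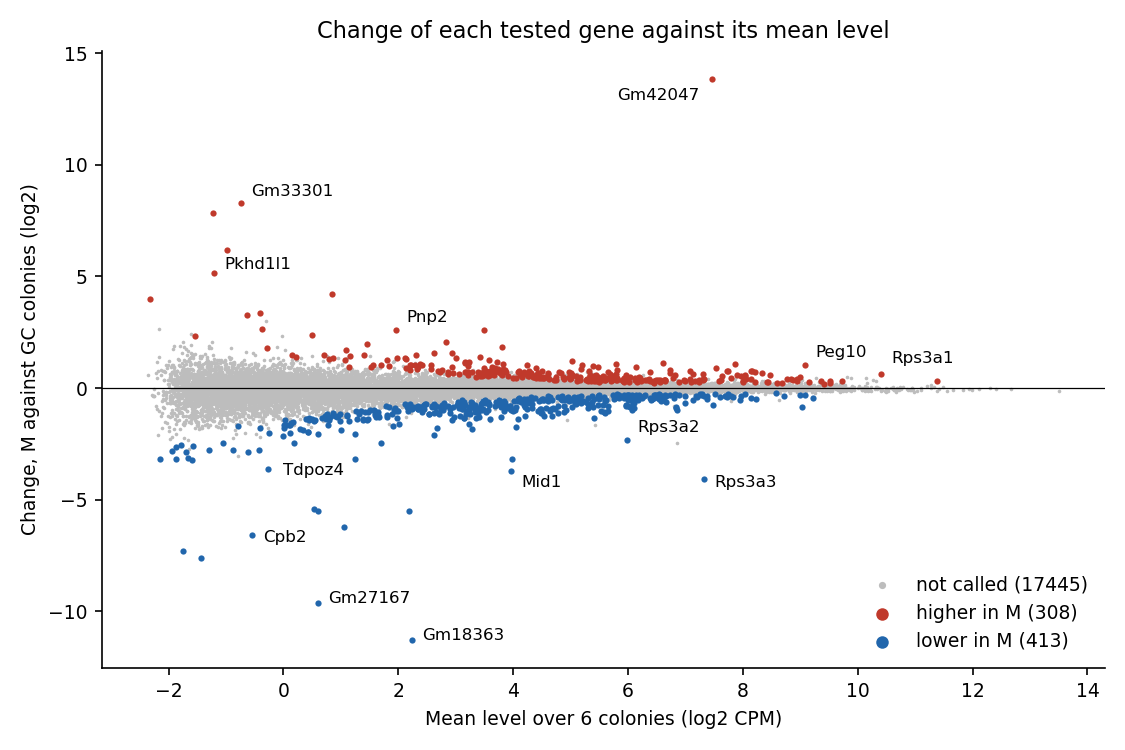
Each point is 1 of the 18166 tested genes, with its mean level over the 6 colonies in log2 CPM on the x axis and its fitted log2 change, M against GC colonies, on the y axis. Red points (308) are higher and blue points (413) lower in M colonies at an edgeR adjusted p under 0.05, grey points are not called, and Gm42047 stands far above the rest. The fitted change of a gene with 0 counts in 1 group depends on a small added count and is no measured fold.

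By kind of gene, 625 of 14673 protein-coding genes were called, 299 higher and 326 lower. Long intergenic noncoding RNA (lincRNA) genes were called in 31 of 552, of which 3 were higher and 28 lower, with a median log2 change of -0.20 over those tested. Pseudogenes are copies of genes that are held not to make the protein. Of 1530 tested processed pseudogenes 30 were called (1.96%), 28 of them lower in M colonies, but the median log2 change was 0.04. Of 111 tested unprocessed ones 15 were called (13.5%), 13 of them lower, with a median log2 change of -0.32. Of 401 tested antisense genes 7 were called (1.75%), all lower, with a median log2 change of -0.12. Whether the authors counted by strand was not stated in the sources used here, so an antisense gene may hold counts of its partner.

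In 1 of the groups 8 loci were all but off, with at most 3 counts in each of its libraries and at least 20 in each of the other, a rule set after the values were seen. Gm42047 is a lincRNA gene (ENSMUSG00000110631, chr8:121833247-121841178, GRCm38). It had 2, 0 and 0 counts in GC1 to GC3 and 11457, 11419 and 11207 counts in M1 to M3. Its level in M colonies, 352, 344 and 358 CPM, was thus like that of abundant protein-coding genes in the same cells. The rule found 3 more loci of this kind in M colonies. Gm33301, a lincRNA gene, had 0 counts in all GC colonies and 20, 61 and 36 counts in M1 to M3, at least 13.3-fold higher against a floor of 3 counts per library. Fthl17-ps1, a ferritin heavy chain-like pseudogene, and Pkhd1l1, which encodes a large membrane protein, had 28 to 35 and 26 to 30 counts in M colonies and at most 1 and 2 counts in GC colonies.

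The other 4 of these loci were all but off in M colonies. Gm18363, a processed pseudogene, had 344, 346 and 250 counts in GC1 to GC3 and 0 in M1 to M3, at least 101-fold lower in M colonies. Gm27167, a lincRNA gene, had 137, 91 and 78 counts against 0, at least 32.7-fold lower. Cpb2, a carboxypeptidase gene best known from liver, had 37, 51 and 47 counts against 1, 0 and 0. In M1, which has Y-linked RNA, and in M2 and M3, which do not, these 8 loci stood at the same end. Gm15726, an antisense gene inside the Mid1 locus on chromosome X, had 90, 81 and 109 counts against 3, 2 and 1. Mid1 encodes a ubiquitin ligase bound to microtubules, and its mouse gene lies across the boundary of the pseudoautosomal region, which X and Y share. Mid1 stood at 29.3, 27.5 and 30.1 CPM in GC1 to GC3 and 3.29, 1.75 and 1.63 CPM in M1 to M3, and fell by 3.70 ± 0.21 (SE) on the log2 scale (edgeR adjusted p = 5.67e-07). Every M colony was below every GC colony, M1 being the highest of the 3. Beside it, Gm15247, also on chromosome X, was at 8.23, 8.43 and 10.2 CPM against 0.277, 0.211 and 0.0958 CPM (GC, then M colonies), and Gm21742, a Y-linked pseudogene, at 3.86, 4.61 and 3.89 CPM against 0.154, 0 and 0 CPM.

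A few ribosomal protein genes were among the clearest differences, and 2 of them have near-identical copies that fell. Rps3a1 encodes a protein of the small ribosomal subunit. Rps3a2 and Rps3a3 are intronless copies of its messenger RNA on other chromosomes. A stretch of their coding sequence is shown because these 3 genes can trade reads: coding bases 521 to 680, counted from 1 at the first coding base, from the GENCODE M21 transcripts (GRCm38), each 5′ to 3′ along its own strand, with capitals at the positions where the 3 differ.
Rps3a1 (minus strand, gene chr3:86137940-86142702): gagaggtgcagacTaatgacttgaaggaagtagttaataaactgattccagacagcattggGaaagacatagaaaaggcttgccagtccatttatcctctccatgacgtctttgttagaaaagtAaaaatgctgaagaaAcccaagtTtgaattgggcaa
Rps3a2 (minus strand, gene chr14:88123017-88123808): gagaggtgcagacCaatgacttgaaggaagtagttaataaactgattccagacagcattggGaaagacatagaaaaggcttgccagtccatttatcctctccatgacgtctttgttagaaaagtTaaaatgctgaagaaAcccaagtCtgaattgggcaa
Rps3a3 (plus strand, gene chr13:108670603-108671397): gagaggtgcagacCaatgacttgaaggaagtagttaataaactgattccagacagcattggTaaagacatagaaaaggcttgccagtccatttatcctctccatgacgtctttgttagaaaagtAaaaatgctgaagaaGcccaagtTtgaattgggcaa
Over the whole coding sequence Rps3a2 differs from Rps3a1 at 4 of 792 bases (T216C, T534C, A645T and T668C, the Rps3a1 base first) and Rps3a3 at 9 of 795.

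The parent and its copies moved in opposite directions. Rps3a1 stood at 1088, 1038 and 1053 CPM in GC1 to GC3 and 1689, 1666 and 1592 CPM in M1 to M3. It rose by 0.64 ± 0.05 (SE) on the log2 scale (edgeR adjusted p = 1.49e-05). Rps3a3 stood at 319, 296 and 296 CPM in GC1 to GC3 and 22.5, 17.3 and 15.1 CPM in M1 to M3. It fell by 4.05 ± 0.12 (SE) on the log2 scale (edgeR adjusted p = 8.57e-10), with the 3 GC colonies within 296 to 319 CPM and the 3 M colonies under 23 CPM. Rps3a2 fell by 2.32 ± 0.12 (SE) on the log2 scale (edgeR adjusted p = 4.24e-07), from 105 ± 10.01 to 21.003 ± 3.81 CPM (SD, n = 3 each). Summed over the 3 genes, GC colonies held 1469 ± 42.3 CPM and M colonies 1688 ± 54.2 CPM (SD, n = 3 each), without overlap. Reads that match 2 or 3 of the copies equally well are not assigned in a way the sources used here describe, so each single value is uncertain.

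Rpl34, a protein of the large subunit, showed the same pair of signs. It rose by 0.79 ± 0.07 (SE) on the log2 scale (edgeR adjusted p = 7.20e-05), from 174, 155 and 145 CPM to 286, 269 and 262 CPM (GC, then M colonies). Rpl34-ps1, which differs from it at 2 of 354 coding bases (T132C and C318G), fell by 0.89 ± 0.08 (SE) on the log2 scale (edgeR adjusted p = 3.69e-05). Together they made up 247 ± 21.4 CPM in the GC group and 321 ± 14.2 CPM in the M group. Rpl30, another large-subunit protein, rose by 0.58 ± 0.06 (SE) on the log2 scale (edgeR adjusted p = 2.45e-04). These were the 3 called of 96 tested protein-coding genes with an Rpl or Rps symbol, whose median log2 change was -0.06. That share is below the 3.97% called of all tested genes. The rest of the family did not pass.

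Across the genome, 1405 of 1610 tested pseudogenes could be matched to a tested parent gene, with at least 90% identity over at least 80% of the pseudogene, a comparison added after the values were seen. Of the 19 matched pseudogenes lower in M colonies, 9 had a parent that was higher, which is 47.4%. Of the 1384 that were not called, 36 had a parent that was higher, which is 2.6%. The pairs share reads where they are identical, so they are not independent measurements. Tdg, the glycosylase that removes oxidized methylcytosine from DNA, rose from 35.2, 34.6 and 37.5 CPM to 80.9, 75.4 and 68.5 CPM, by 1.07 ± 0.08 (SE) on the log2 scale (edgeR adjusted p = 1.27e-05). Its pseudogene Gm9855 fell from 34.5, 31.4 and 34.2 CPM to 18.6, 19.8 and 16.3 CPM. The sum of the pair rose 1.35-fold, from 69.1 ± 2.91 to 93.1 ± 7.56 CPM (SD, n = 3 each). For 2 other pairs the sum overlapped between the groups. Psmb5, a catalytic subunit of the proteasome (log2 change 0.47, edgeR adjusted p = 0.00853), and its copy Gm3375 (log2 change -0.83, edgeR adjusted p = 3.43e-04) summed to 102 ± 10.5 and 107 ± 4.79 CPM. Ncoa4, the receptor that takes ferritin to the lysosome (log2 change 0.44, edgeR adjusted p = 0.0184), and Gm6768 (log2 change -0.84, edgeR adjusted p = 8.71e-04) summed to 70.3 ± 7.45 and 76.4 ± 2.29 CPM. When 1 colony was left out the calls ended for Psmb5 without GC2 and Ncoa4 without GC1, GC2, M1 or M3 (edgeR adjusted p up to 0.132). The remaining sets were Bex4 with Gm4322 and Gm12245, and Hmgb1 with Gm13228, whose sums rose without overlap. The Bex4 set went from 84.5 ± 3.70 to 100.2 ± 10.8 CPM and the Hmgb1 pair from 275 ± 3.16 to 330 ± 14.6 CPM (SD, n = 3 each), 1.19-fold and 1.20-fold. There, calls ended for Bex4 and Gm13228 without GC1, GC2, GC3, M1 or M3 and Hmgb1 without GC2 (edgeR adjusted p up to 0.197).

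**Figure D2:**
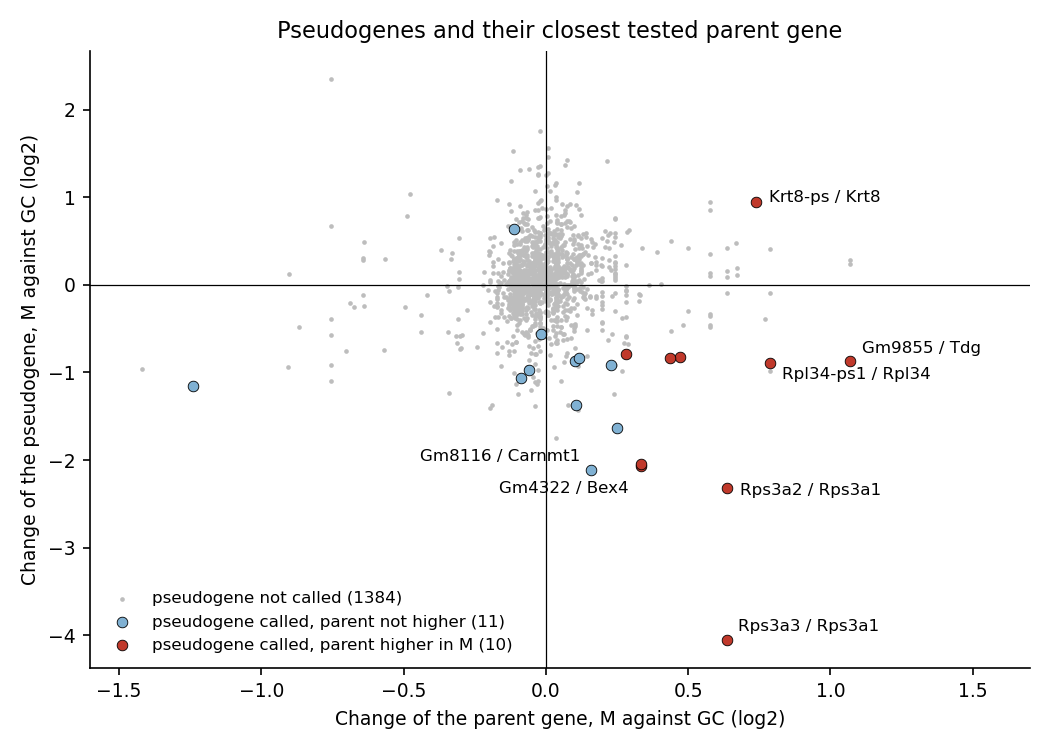
Each point is 1 of 1405 pseudogenes, with the log2 change of its closest tested parent gene on the x axis and its own log2 change on the y axis (M against GC colonies). The 10 red points are called pseudogenes whose parent was higher in M colonies; all but Krt8-ps lie in the lower right corner of the plot, where the parent is up and the copy down.

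Copies that lie side by side on chromosome 17 differed as well. Tagap1 and Tagap encode proteins that switch off small GTPases. Tagap1 rose by 1.82 ± 0.12 (SE) on the log2 scale (edgeR adjusted p = 5.88e-06), from 6.55, 6.00 and 5.91 CPM to 24.3, 20.9 and 19.96 CPM (GC, then M colonies). Tagap fell by 0.95 ± 0.20 (SE) on the log2 scale (edgeR adjusted p = 0.0184), from 7.19, 5.87 and 6.92 CPM to 3.47, 2.68 and 4.22 CPM. Their sum went from 12.8 ± 0.936 CPM in the GC group to 25.2 ± 2.25 CPM in the M group, so the rise of 1 was larger than the fall of the other. Calls were lost for Tagap without GC1, GC2 or M2 (edgeR adjusted p up to 0.0772). Dynlt1b, 1 of 4 tested copies of a dynein light chain, fell by 1.34 ± 0.10 (SE) on the log2 scale (edgeR adjusted p = 1.03e-05), from 64.4, 64.7 and 52.5 CPM to 24.8, 22.3 and 24.9 CPM. Dynlt1a, Dynlt1c and Dynlt1f did not pass (log2 change -0.13, -0.30 and -0.02). The 4 together were 109 ± 8.57 CPM in the GC group and 68.9 ± 3.02 CPM in the M group. Pnp2 lies on chromosome 14 and, like Pnp, splits purine nucleosides. Pnp2 rose by 2.61 ± 0.27 (SE) on the log2 scale (edgeR adjusted p = 2.36e-04), from 1.51, 1.11 and 0.664 CPM to 7.99, 5.84 and 6.36 CPM. Pnp was far more abundant at 42.5, 39.8 and 30.5 CPM against 39.8, 34.8 and 32.8 CPM and did not pass, and the pair's sum overlapped between groups.

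To cover pathways and families across the genome, 73 gene lists were compared, with 2058 tested genes between them, of which 173 were called (106 higher and 67 lower). In 14 lists no tested member passed. These were nuclear-encoded oxidative phosphorylation (49 tested), replication-dependent histones (40), DNA replication (36), the BCL2 family and caspases (34), polycomb complexes (32), ribosome biogenesis (30), translation initiation with tRNA synthetases (30), sphingolipid and phospholipid synthesis (30), NF-kB and chemokines (29), p53 targets (28), heat shock chaperones (26), cholesterol synthesis (24), telomerase and shelterin (22) and Y-linked genes (5). Summed over these lists, edgeR gave 51 of 415 members an unadjusted p under 0.05, against 16.6% of all tested genes (3022 of 18166), DESeq2 called 6 and the voom test of limma called 4, all 4 of them Y-linked genes. The list shares below are set beside the 3.97% of all tested genes. Lists and their members were chosen with earlier results of these data known. A share above 3.97% is therefore a description and no independent support.

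**Figure D3:**
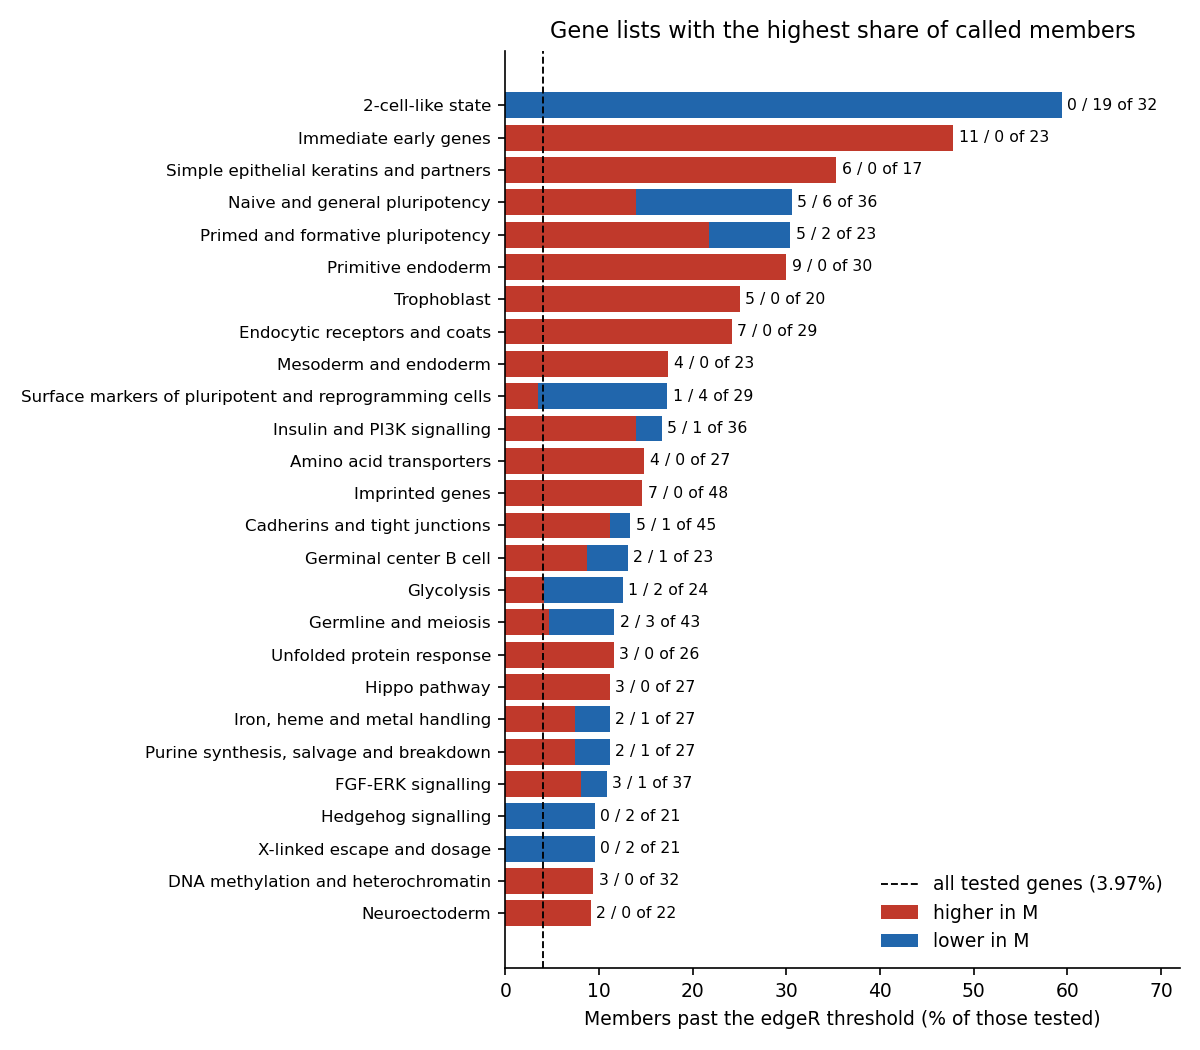
Bars give the share of tested members past the edgeR threshold, in percent, for the 26 lists with the highest share among those with at least 15 tested members, split into members higher (red) and lower (blue) in M colonies; the numbers are higher / lower of tested. The dashed line is the share of all tested genes, 3.97%, and the 2-cell-like list stands highest at 59.4%.

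The largest share belonged to the 2-cell-like list. Its genes are active in the embryo after its first cleavage and, at any time, in a few cells of a stem cell culture. Of 32 tested members, 19 were lower in M colonies, 0 were higher and 13 did not pass, which is 59.4%. The median log2 change was -0.84, and 2 of the 32 changes were positive. The summed level of the list was 1265 to 1350 CPM in GC colonies and 715, 930 and 794 CPM in M1 to M3. The Zscan4 genes, zinc finger proteins that lengthen telomeres and mark this state, lie in a cluster on chromosome 7. Their start regions are shown because they are nearly the same sequence, as are the transcripts: 150 bases of each from RefSeq (GRCm38.p6), in capitals the positions where the 3 differ.
Zscan4c (chr7:11005585-11005734, plus strand): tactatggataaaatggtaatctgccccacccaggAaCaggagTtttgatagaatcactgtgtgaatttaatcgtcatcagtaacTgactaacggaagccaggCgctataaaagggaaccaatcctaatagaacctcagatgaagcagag
Zscan4d (chr7:11166170-11166319, minus strand): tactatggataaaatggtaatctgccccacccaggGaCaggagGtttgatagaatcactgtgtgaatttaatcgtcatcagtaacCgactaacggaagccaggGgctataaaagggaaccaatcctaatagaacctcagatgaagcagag
Zscan4f (chr7:11397778-11397927, plus strand): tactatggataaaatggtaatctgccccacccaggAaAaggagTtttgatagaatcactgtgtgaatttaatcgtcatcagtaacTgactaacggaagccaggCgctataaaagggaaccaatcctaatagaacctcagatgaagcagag
Zscan4d differs from Zscan4c at 4 of the 150 bases and Zscan4f at 1.

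Zscan4c stood at 140.2, 156 and 149 CPM in GC1 to GC3 and 65.5, 103 and 74.7 CPM in M1 to M3. It fell by 0.87 ± 0.13 (SE) on the log2 scale (edgeR adjusted p = 0.00205). Zscan4d fell by 0.84 ± 0.10 (SE) on the log2 scale (edgeR adjusted p = 6.89e-04) and Zscan4f by 0.75 ± 0.12 (SE) on the log2 scale (edgeR adjusted p = 0.00361). In all of these M2 was the highest M colony and still below every GC colony. Outside this cluster Tcstv3, a marker of the same state on chromosome 13, went from 12.8, 12.8 and 12.1 CPM to 5.13, 6.30 and 5.30 CPM (GC, then M colonies). Tdpoz4 was the member with the smallest adjusted p, from 4.65, 4.40 and 3.76 CPM to 0.461, 0.542 and 0.415 CPM. Gm2016 and Gm8300, of a cluster of like copies on chromosome 12, fell by 1.24 ± 0.13 (SE) on the log2 scale (edgeR adjusted p = 2.65e-04) and 0.97 ± 0.16 (SE) on the log2 scale (edgeR adjusted p = 0.00496). Sp110, which encodes a nuclear body protein, fell by 1.39 ± 0.23 (SE) on the log2 scale (edgeR adjusted p = 0.00498), and its lowest value was in M1 at 4.92 CPM. The number of members called was 14 without GC2 and 16 without M3, 22 without both M2 and M3 and 23 without M2 alone, all lower in M colonies. Zscan4e, Tcstv1, Zfp352 and Calcoco2 were the named members whose call ended in a leave-out. This happened for Zscan4e and Calcoco2 without GC2 or M3, Tcstv1 without GC2 and Zfp352 without GC2, GC3 or M3 (edgeR adjusted p up to 0.109). Counts of single copies in these families are uncertain. In bulk RNA, fewer cells in this state and less RNA per cell cannot be told apart.

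Immediate early genes, which are transcribed within minutes of a growth factor, stress or handling, were the list with the next highest share. Of 23 tested members 11 were higher in M colonies, 0 lower and 12 did not pass, which is 47.8%, with a median log2 change of 0.34. The 11 were Jun, Fosb, Fosl2, Zfp36, Atf3, Klf6, Junb, Egr2, Dusp1, Maff and Nr4a1. Jun, a subunit of the AP-1 transcription factor, stood at 236, 218 and 228 CPM in GC1 to GC3 and 308, 280.5 and 323 CPM in M1 to M3. It rose by 0.42 ± 0.07 (SE) on the log2 scale (edgeR adjusted p = 0.00314). Fosb, its partner, went from 403, 382 and 436 CPM to 528, 495 and 561 CPM (GC, then M colonies), and Atf3, a stress-induced repressor, from 68.2, 56.1 and 65.9 CPM to 127, 73.8 and 109.8 CPM, where M2 was close to GC1. Fos and Egr1, often used to mark this response, did not pass (log2 change 0.24, edgeR adjusted p = 0.0888 and log2 change 0.21, edgeR adjusted p = 0.117). The count depended on single colonies: 1 member was called without GC2, 1 without M3, 6 without GC1 and 2 without M2 and M3. Jun was the exception among the 11, as calls ended for Fosb, Fosl2 and Zfp36 without GC2 or M3, Atf3 without GC2, M1 or M3, Klf6 without GC1, GC2 or M3, Junb without GC1, GC2, M1 or M3, Egr2 without GC2, M2 or M3, Dusp1 and Nr4a1 without GC1, GC2, M2 or M3 and Maff without GC1, GC2, GC3, M1 or M3 (edgeR adjusted p up to 0.269). 

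Promoters of 2 of these genes show the elements through which such genes are known to respond. The 250 bases upstream of the start are from RefSeq (GRCm38.p6), 5′ to 3′ on the gene's strand, with capitals at a CArG box, the site of serum response factor, in Zfp36, and at the cyclic AMP response element TGACGTCA in Dusp1.
Zfp36 (chr7:28379229-28379478, minus strand): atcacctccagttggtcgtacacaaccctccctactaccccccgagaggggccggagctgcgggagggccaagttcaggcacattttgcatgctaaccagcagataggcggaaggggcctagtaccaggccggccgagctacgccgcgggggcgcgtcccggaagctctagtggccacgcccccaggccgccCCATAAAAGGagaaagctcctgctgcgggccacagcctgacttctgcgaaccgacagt
Dusp1 (chr17:26508473-26508722, minus strand): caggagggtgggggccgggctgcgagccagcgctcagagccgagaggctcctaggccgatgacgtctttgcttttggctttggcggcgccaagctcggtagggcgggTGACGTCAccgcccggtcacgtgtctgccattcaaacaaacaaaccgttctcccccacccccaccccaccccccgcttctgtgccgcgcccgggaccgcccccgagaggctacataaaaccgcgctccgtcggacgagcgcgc
Zfp36 encodes a protein that destabilizes messenger RNAs and rose by 0.34 ± 0.07 (SE) on the log2 scale (edgeR adjusted p = 0.0174). Dusp1, a phosphatase of stress-activated kinases, rose by 0.25 ± 0.06 (SE) on the log2 scale (edgeR adjusted p = 0.0367). The fit lost Zfp36 without GC2 or M3 and Dusp1 without GC1, GC2, M2 or M3 (edgeR adjusted p up to 0.224). Searched on both strands in the 250 bases, a CArG box was in 3 of 18 immediate early genes with an entry and in 2 of the 11 called ones, against 439 of 27018 genes in the table (1.62%), any start of a gene being counted. The cyclic AMP element was in 3 of 18 and 2 of 11, against 478 genes (1.77%). A match is a description of the letters only.

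Among growth factor pathways, insulin and PI3K signalling had the highest share, 16.7%, with 5 of 36 tested members higher and 1 lower, and a median log2 change of 0.11. The higher genes encode a ligand, receptors and adaptors, and among them only Irs4 held in every leave-out. Igf2, a fetal growth factor, was at 6.80, 9.23 and 9.36 CPM against 12.3, 15.6 and 13.6 CPM (GC, then M colonies), and its receptor gene Igf1r rose by 0.28 ± 0.07 (SE) on the log2 scale (edgeR adjusted p = 0.0431). Insr, the insulin receptor, rose by 0.47 ± 0.12 (SE) on the log2 scale (edgeR adjusted p = 0.0442). Irs4 and Irs2 are adaptors that carry the receptor's signal to PI3K. Irs4 stood at 2.71, 3.75 and 5.03 CPM in GC1 to GC3 and 12.0, 8.50 and 13.8 CPM in M1 to M3, and rose by 1.58 ± 0.23 (SE) on the log2 scale (edgeR adjusted p = 0.00215). Irs2 rose by 0.39 ± 0.08 (SE) on the log2 scale (edgeR adjusted p = 0.0148). Inpp5d, a phosphatase that degrades the lipid product of PI3K, fell from 104, 107 and 118 CPM to 76.3, 82.4 and 72.8 CPM, by 0.51 ± 0.07 (SE) on the log2 scale (edgeR adjusted p = 0.00198). Downstream, the kinase gene Akt1 did not pass (log2 change 0.13). The number higher was 1 without GC1, without GC2 or without M3, 2 without M2 and 7 without M1, while Irs4 and Inpp5d were called in every leave-out. The other calls ended for Igf2 and Igf1r without GC1, GC2, M2 or M3, Insr without GC1, GC2, GC3, M2 or M3 and Irs2 without GC1, GC2 or M3 (edgeR adjusted p up to 0.235).

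In FGF-ERK signalling 3 of 37 were higher and 1 lower (10.8%, median 0.06). Fgf10, a ligand of epithelial buds, rose by 1.08 ± 0.15 (SE) on the log2 scale (edgeR adjusted p = 0.00142), from 8.48, 8.15 and 10.7 CPM to 19.8, 15.97 and 21.8 CPM (GC, then M colonies). Etv4, an ETS factor induced by ERK, rose by 0.36 ± 0.08 (SE) on the log2 scale (edgeR adjusted p = 0.0185). Dusp5, which removes phosphate from ERK in the nucleus, rose by 0.33 ± 0.08 (SE) on the log2 scale (edgeR adjusted p = 0.0406). Fgf1 fell by 0.76 ± 0.17 (SE) on the log2 scale (edgeR adjusted p = 0.0245). The main FGF of these cells, Fgf4, did not pass (log2 change -0.18, edgeR adjusted p = 0.140), nor did the feedback genes Dusp6 and Spry4 (log2 change 0.23 and 0.11). Leave-outs ended the calls for Etv4 without GC2, M2 or M3, Dusp5 without GC1, GC2, GC3, M1, M2 or M3 and Fgf1 without GC2, GC3, M1 or M3 (edgeR adjusted p up to 0.188). Outside the list, Epha2, a receptor of ephrins that M colonies held at 263 to 306 CPM and GC colonies at 183 to 195 CPM, rose by 0.60 ± 0.07 (SE) on the log2 scale (edgeR adjusted p = 3.18e-04). Ntn1, which encodes a guidance cue for axons, rose by 0.99 ± 0.11 (SE) on the log2 scale (edgeR adjusted p = 2.40e-04), from 26.6, 27.7 and 29.6 CPM to 46.5, 61.6 and 58.8 CPM.

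Wnt signalling had 3 of 51 higher and 1 lower (7.84%, median 0.10). Dkk1, a secreted protein that blocks the Wnt co-receptor, rose by 1.47 ± 0.23 (SE) on the log2 scale (edgeR adjusted p = 0.00326), from 2.35, 3.20 and 2.31 CPM to 8.11, 5.12 and 8.56 CPM (GC, then M colonies). Sfrp1, which binds Wnt proteins outside the cell, rose by 0.64 ± 0.14 (SE) on the log2 scale (edgeR adjusted p = 0.0269), where M1 at 44.7 CPM was near the GC colonies and M2 and M3 were above 71 CPM. Sp5, a Wnt target, rose by 0.95 ± 0.24 (SE) on the log2 scale (edgeR adjusted p = 0.0483). Tcf7l1, which holds Wnt targets down in stem cells, fell by 0.34 ± 0.08 (SE) on the log2 scale (edgeR adjusted p = 0.0276). Axin2, the usual readout of the pathway, did not pass (log2 change 0.27, edgeR adjusted p = 0.247). Calls ended for Sfrp1 without GC1, GC2, GC3, M2 or M3, Sp5 without GC1, GC2, GC3, M1, M2 or M3 and Tcf7l1 without GC1, GC2, M2 or M3 (edgeR adjusted p up to 0.186). Sp5 was also lost with the voom test of limma (adjusted p = 0.0577).

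In the Hippo pathway 3 of 27 were higher and 0 lower (11.1%, median 0.14). Amot, a scaffold that keeps Yap out of the nucleus, stood at 58.5, 46.4 and 80.3 CPM in GC1 to GC3 and 135, 104 and 163 CPM in M1 to M3. M3 was the highest M colony and GC3 the highest GC colony, and the groups stood apart by 1.12 ± 0.18 (SE) on the log2 scale (edgeR adjusted p = 0.00347). Wwtr1, a relative of Yap, rose by 0.44 ± 0.08 (SE) on the log2 scale (edgeR adjusted p = 0.0116), and the kinase gene Stk3 by 0.37 ± 0.09 (SE) on the log2 scale (edgeR adjusted p = 0.0419). Yap1 and its targets Ccn1 and Ccn2 did not pass (log2 change 0.12, 0.23 and 0.13). Leaving out 1 colony ended the calls for Wwtr1 without GC1, GC2 or M3 and Stk3 without GC1, GC2, M2 or M3 (edgeR adjusted p up to 0.212). Hedgehog signalling had 0 of 21 higher and 2 lower (9.52%, median 0.05). Both are genes that the pathway itself switches on. Gli1, a transcription factor, fell by 0.52 ± 0.09 (SE) on the log2 scale (edgeR adjusted p = 0.00801) and Ptch1, the receptor, by 0.40 ± 0.09 (SE) on the log2 scale (edgeR adjusted p = 0.0198). Neither was called in every leave-out, with losses for Gli1 without GC2 or M3 and Ptch1 without GC2, M2 or M3 (edgeR adjusted p up to 0.131).

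The remaining signalling lists were near the share of all genes. Nodal and TGF-beta signalling had 1 of 31 lower, namely Lefty1, an inhibitor of Nodal (log2 change -0.54, edgeR adjusted p = 0.0214). BMP signalling had 1 of 31 higher, the ligand Bmp6 (log2 change 0.75, edgeR adjusted p = 0.0273), while its targets Id1 and Id3 did not pass (log2 change 0.10 and 0.01). LIF-STAT3 signalling had 1 of 25 higher, the kinase Pim2 (log2 change 0.39, edgeR adjusted p = 0.0316), and the feedback inhibitor Socs3 did not pass (log2 change 0.10, edgeR adjusted p = 0.561). Notch signalling had 1 of 28 lower, Notch4 (log2 change -0.42, edgeR adjusted p = 0.0462). Nuclear receptors and retinoid signalling had 1 of 37 lower, Stra8, a retinoic acid target of the germ line (log2 change -0.62, edgeR adjusted p = 0.0164). All 5 calls were lost in some leave-out, namely Lefty1 without GC1, GC2, M2 or M3, Bmp6 without GC2, M1 or M3, Pim2 and Notch4 without GC1, GC2, GC3, M1 or M3 and Stra8 without GC1, GC2 or M3 (edgeR adjusted p up to 0.236).

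Several genes of simple epithelia were higher in M colonies. Of 17 tested keratins and partners 6 were higher, 0 lower and 11 did not pass (35.3%, median 0.40). Krt8 and Krt18 encode the paired filament proteins of simple epithelium. Krt8 stood at 238, 217 and 212 CPM in GC1 to GC3 and 373, 338 and 402 CPM in M1 to M3, and rose by 0.74 ± 0.07 (SE) on the log2 scale (edgeR adjusted p = 1.29e-04). Krt18 rose by 0.75 ± 0.09 (SE) on the log2 scale (edgeR adjusted p = 5.51e-04), from 158 ± 11.6 to 265 ± 35.8 CPM (SD, n = 3 each). In both, every M colony stood above every GC colony, and M3 was the highest. Dsp, which ties keratin to cell junctions, rose by 0.74 ± 0.12 (SE) on the log2 scale (edgeR adjusted p = 0.00361). Krt7, Krt19 and Lmna, the gene of nuclear lamin A, made up the rest. Calls were not kept for Krt7 without GC2, GC3, M2 or M3, Krt19 without GC2 or M3 and Lmna without GC2, M1 or M3 (edgeR adjusted p up to 0.152). Krt42, outside the list, went down by 0.88 ± 0.17 (SE) on the log2 scale (edgeR adjusted p = 0.0104). The fit lost Krt42 without GC2 (edgeR adjusted p up to 0.0674). Without GC2 or without M3 the list held 3 called members, as it did without both M2 and M3.

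Junction genes were less marked. Of 45 cadherin and tight junction genes 5 were higher and 1 lower (13.3%, median 0.14). Cldn7, a claudin, rose by 0.70 ± 0.11 (SE) on the log2 scale (edgeR adjusted p = 0.00285), and Gja1, which encodes the gap junction protein connexin 43, by 0.56 ± 0.09 (SE) on the log2 scale (edgeR adjusted p = 0.00371). Esrp1, an epithelial splicing factor, and Dsg2, a desmosomal cadherin, also passed (log2 change 0.38, edgeR adjusted p = 0.0355 and log2 change 0.37, edgeR adjusted p = 0.0425). Cdh1 and Epcam, the adhesion proteins that mark epithelium, did not pass (log2 change 0.21 and 0.21). The calls ended for Esrp1 without GC1, GC2, M1 or M3 and Dsg2 without GC1, GC2, M2 or M3 (edgeR adjusted p up to 0.223).

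Of 36 contractile actin genes 3 were higher and 0 lower (8.33%, median 0.16), all abundant: Actb, cytoplasmic beta-actin, at 2583, 2407 and 2176 CPM against 2888, 2801 and 3121 CPM (GC, then M colonies), and the tropomyosins Tpm1 and Tpm4 (log2 change 0.29, edgeR adjusted p = 0.0118 and log2 change 0.34, edgeR adjusted p = 0.0240). Calls were lost for Actb and Tpm1 without GC2 or M3 and Tpm4 without GC1, GC2, M1 or M3 (edgeR adjusted p up to 0.144). Without GC2 or M3 none of this list was called, and 1 was called without both M2 and M3. Unconventional myosins, which move cargo along actin, gave 3 called of 21 tested Myo genes, all higher: Myo5b (log2 change 0.95, edgeR adjusted p = 0.0198), Myo6 (log2 change 0.47, edgeR adjusted p = 0.0423) and Myo7a (log2 change 0.91, edgeR adjusted p = 0.00828). Losses came for Myo5b without GC1, GC2 or M3 and Myo6 without GC1, GC2, M1 or M3 (edgeR adjusted p up to 0.234). Of 40 basement membrane and receptor genes 2 were higher, Hspg2 (perlecan) and Itgb5, and 1 lower, Lama3 (7.5%, median 0.09). Lama3, a laminin chain of epithelial basement membrane, fell by 0.99 ± 0.15 (SE) on the log2 scale (edgeR adjusted p = 0.00224), from 20.6, 18.2 and 23.6 CPM to 8.82, 12.6 and 9.87 CPM. Calls were not kept for Hspg2 without GC1, GC2, M1 or M3 and Itgb5 without GC1, GC2, M2 or M3 (edgeR adjusted p up to 0.148). Of 41 microtubule and cilium genes 3 were lower and 0 higher (7.32%, median -0.05): Mid1, Dynlt1b and Stmn1, which takes microtubules apart (log2 change -0.35, edgeR adjusted p = 0.0310). Here the call ended for Stmn1 without GC1, GC2, M2 or M3 (edgeR adjusted p up to 0.173).

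Genes of the primitive endoderm, the extraembryonic layer that forms the yolk sac, all had positive changes, although fewer passed. Of 30 tested members 9 were higher, 0 lower and 21 did not pass (30%), all 30 changes were positive and the median log2 change was 0.56. The summed level was 7634, 6700 and 7628 CPM in GC1 to GC3 and 10979, 7598 and 11459 CPM in M1 to M3, so M2 lay within the range of the GC colonies. Visceral endoderm takes up protein through cubilin, megalin and amnionless, whose genes are Cubn, Lrp2 and Amn, with the adaptor Dab2. Cubn stood at 164, 124 and 163 CPM in GC1 to GC3 and 304, 231 and 408 CPM in M1 to M3, and rose by 1.07 ± 0.16 (SE) on the log2 scale (edgeR adjusted p = 0.00285). Dab2 rose by 0.89 ± 0.15 (SE) on the log2 scale (edgeR adjusted p = 0.00413), Amn by 1.05 ± 0.20 (SE) on the log2 scale (edgeR adjusted p = 0.0100) and Lrp2 by 0.78 ± 0.15 (SE) on the log2 scale (edgeR adjusted p = 0.0106). M2 was the lowest M colony for all 4 and still above the GC colonies. Foxq1, a forkhead factor, rose by 1.15 ± 0.16 (SE) on the log2 scale (edgeR adjusted p = 0.00139), from 8.34, 7.47 and 8.76 CPM to 19.8, 13.9 and 20.8 CPM (GC, then M colonies). Apoe, Srgn and Ttr were called as well. The factors that define the lineage did not pass: Gata6 was at 39.0, 27.6 and 28.4 CPM against 56.9, 35.2 and 57.9 CPM, Gata4 at 69.2, 56.8 and 56.9 CPM against 103, 63.3 and 112 CPM and Sox17 at 18.0, 13.1 and 11.7 CPM against 21.3, 10.9 and 23.3 CPM. Calls ended for Amn, Lrp2, Srgn and Ttr without GC2 or M3 (edgeR adjusted p up to 0.0812). The list count was 4 without GC2 or without M3, 21 without M2, 19 without both M2 and M3, and 23 with no filter on low counts.

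**Figure D4:**
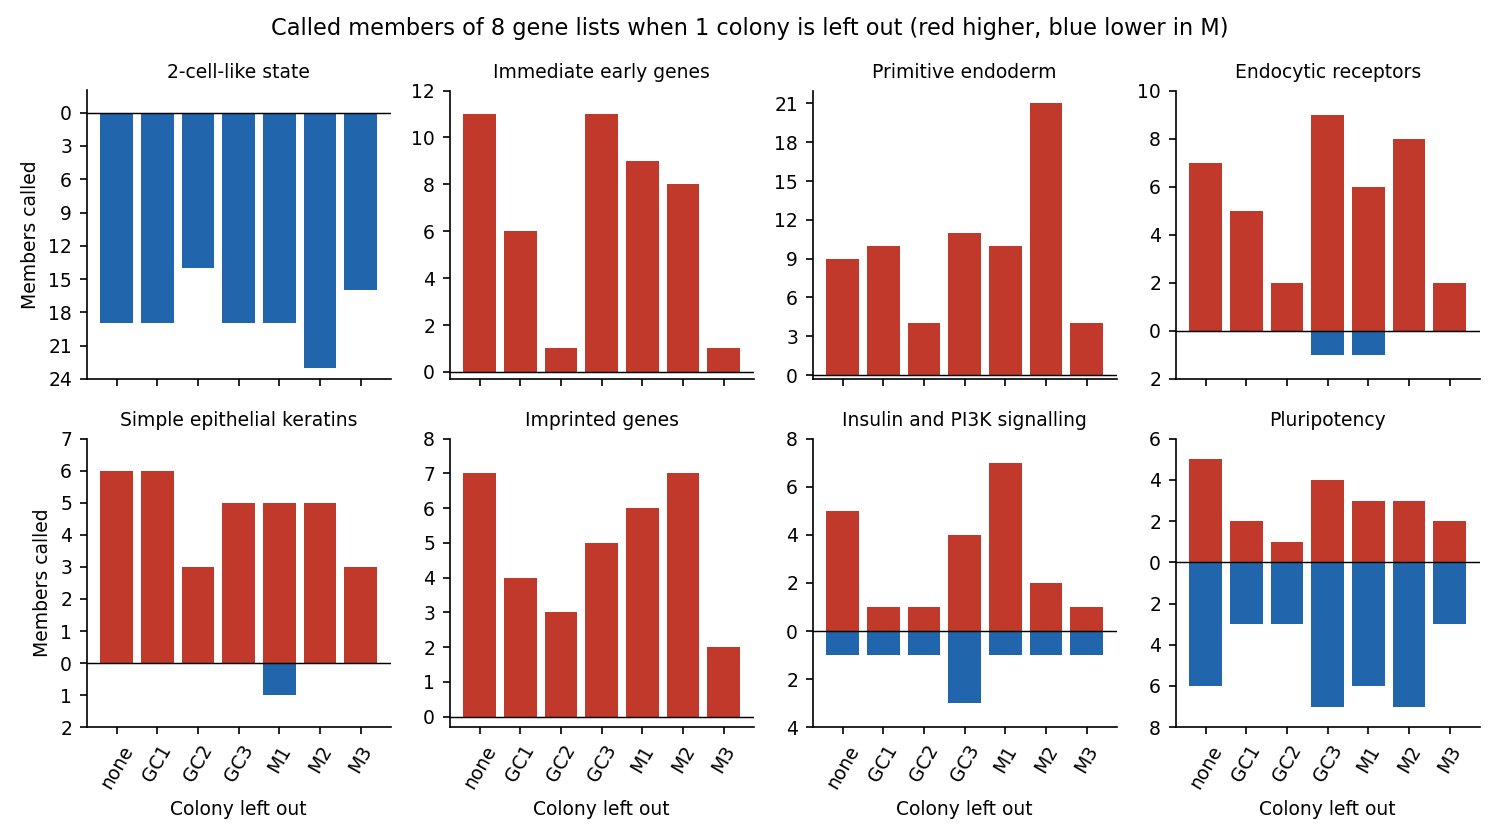
Bars give the number of members called (edgeR adjusted p under 0.05) in 8 gene lists, on the y axis, with all 6 colonies (none) and with each colony left out in turn, on the x axis; red bars are higher and blue bars lower in M colonies. The 2-cell-like count stays between 14 and 23, whereas the immediate early count drops from 11 to 1 without GC2 or M3.

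The endocytic list shares genes with the primitive endoderm list. Of 29 tested receptors and coat proteins 7 were higher and 0 lower (24.1%, median 0.04): Cubn, Dab2, Amn, Lrp2, Cavin1, Lrp8 and Myo6. Cavin1, which shapes caveolae, rose by 0.34 ± 0.07 (SE) on the log2 scale (edgeR adjusted p = 0.0116), and Lrp8, an apolipoprotein E receptor, by 0.41 ± 0.09 (SE) on the log2 scale (edgeR adjusted p = 0.0204). The fit lost Cavin1 without GC2 or M3 and Lrp8 without GC1, GC2 or M3 (edgeR adjusted p up to 0.134). Called members numbered 2 without GC2 or M3. Outside the list, Apob, the core protein of lipoproteins, was at 6.38, 5.04 and 9.58 CPM against 15.6, 11.5 and 23.5 CPM (GC, then M colonies), and Pga5, which codes for a pepsinogen, at 20.9, 14.7 and 23.3 CPM against 52.0, 30.6 and 53.9 CPM. Soat1, which esterifies cholesterol and was named after its value was seen, rose by 0.68 ± 0.08 (SE) on the log2 scale (edgeR adjusted p = 5.51e-04). Of these 3 the call ended for Apob without GC1, GC2 or M3 (edgeR adjusted p up to 0.0937).

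Other lineage lists had fewer calls. Of 20 trophoblast genes 5 were higher and 0 lower (25%, median 0.11), but 4 of the 5 were keratins. The remaining one was Eomes, a T-box factor of trophoblast and of gastrulation, which rose by 0.83 ± 0.12 (SE) on the log2 scale (edgeR adjusted p = 0.00193), from 10.7, 9.99 and 10.5 CPM to 16.7, 18.0 and 20.9 CPM (GC, then M colonies). The trophoblast factors Cdx2, Elf5 and Gata3 were low, at 18 to 76, 0 to 8 and 45 to 75 counts a library. Tfap2c and Hand1, markers of the same lineage, were not, at 1433 to 2336 and 310 to 526 counts. Of 23 mesoderm and endoderm genes 4 were higher and 0 lower (17.4%, median 0.40): Eomes, Runx1, Lhx1 and Sp5. Lhx1, a gastrulation factor, rose by 1.57 ± 0.31 (SE) on the log2 scale (edgeR adjusted p = 0.0142), from 2.88, 1.599 and 4.81 CPM to 11.9, 6.93 and 8.78 CPM, and Runx1, a factor of blood formation, by 0.61 ± 0.12 (SE) on the log2 scale (edgeR adjusted p = 0.0120). Calls were lost for Runx1 without GC2 or M3 and Lhx1 without GC1, M1 or M3 (edgeR adjusted p up to 0.0840). Of 22 neuroectoderm genes 2 were higher, Sox11 (log2 change 0.57, edgeR adjusted p = 0.00215) and Sox3 (log2 change 0.71, edgeR adjusted p = 0.0113), and 0 lower (9.09%, median -0.08). The fit lost Sox3 without GC1 (edgeR adjusted p up to 0.0536). The neuronal list had 1 of 27 lower, Mobp, and the ion channel list 1 of 40 higher, the sodium channel Scn3a (log2 change 1.33, edgeR adjusted p = 0.0204). Leave-outs also ended the call of Scn3a without GC1, GC2, M2 or M3 (edgeR adjusted p up to 0.101). Of 27 Hox genes Hoxa11 alone passed, at under 1 CPM in every colony, and its call ended in all 6 leave-outs (edgeR adjusted p up to 0.190).

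Fibroblast genes, which leftover feeders would bring, were measured beside these lists. Of 32 tested markers 1 was higher, Fstl1, and 0 were lower (3.12%, median 0.06). The fit lost Fstl1 without GC1, GC2, M2 or M3 (edgeR adjusted p up to 0.0877). Their summed level was 5129, 5473 and 5922 CPM in GC1 to GC3 and 6138, 5612 and 5097 CPM in M1 to M3, which overlap. Col1a1, a collagen of fibroblasts, was between 294 and 410 CPM in all 6 colonies.

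Pluripotency genes were called in both directions. Of 36 genes of the naive and general list 5 were higher and 6 lower (30.6%), with a median log2 change of -0.02. Pou5f1, which encodes Oct4, stood at 375, 381 and 375 CPM in GC1 to GC3 and 497, 505 and 482 CPM in M1 to M3, and rose by 0.39 ± 0.05 (SE) on the log2 scale (edgeR adjusted p = 0.00120). Klf4 rose by 0.40 ± 0.07 (SE) on the log2 scale (edgeR adjusted p = 0.00662), while Klf2, of the same family, fell by 0.34 ± 0.08 (SE) on the log2 scale (edgeR adjusted p = 0.0328). Lin28b, Mybl2 and Dnmt3l completed the higher genes. Fbxo15, a target of Oct4, fell by 0.77 ± 0.08 (SE) on the log2 scale (edgeR adjusted p = 2.36e-04), from 228, 236 and 215 CPM to 132, 148 and 117 CPM (GC, then M colonies). Tcl1, which binds Akt, fell by 0.57 ± 0.09 (SE) on the log2 scale (edgeR adjusted p = 0.00318), and the adhesion gene Pecam1 by 0.49 ± 0.08 (SE) on the log2 scale (edgeR adjusted p = 0.00328). Dppa2 and Alpl, alkaline phosphatase, were lower as well. Sox2, Nanog and Myc did not pass (log2 change -0.17, -0.24 and 0.38); Myc, whose reporter set the groups apart before reprogramming, was at 27.8, 28.0 and 22.2 CPM against 33.6, 32.1 and 35.6 CPM. Leave-outs ended the calls for Klf4 without GC2, Klf2 without GC1, GC2, M2 or M3, Lin28b without GC1, GC2 or M3, Mybl2 without GC1, GC2, M1, M2 or M3, Dnmt3l without GC1, GC2, GC3, M1, M2 or M3 and Dppa2 and Alpl without GC1, GC2, M1 or M3 (edgeR adjusted p up to 0.252). Over the leave-outs 1 to 4 members were higher and 3 to 7 lower, with 1 and 3 without GC2 and 1 and 3 without both M2 and M3.

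Of 23 genes of the primed and formative list 5 were higher and 2 lower (30.4%, median 0.16). Otx2, a factor that opens the formative state, stood at 54.3, 51.5 and 56.2 CPM in GC1 to GC3 and 33.6, 24.7 and 31.5 CPM in M1 to M3, and fell by 0.85 ± 0.11 (SE) on the log2 scale (edgeR adjusted p = 6.94e-04), against the direction of most of its list. The higher members were Krt18, Dkk1, Sox3, Etv4 and Car4, 4 of them also in other lists above. Car4, a carbonic anhydrase, was the fifth (log2 change 0.65, edgeR adjusted p = 0.0357), a call that DESeq2 did not make (adjusted p = 0.121). The edgeR call ended for Car4 without GC2, GC3 or M3 (edgeR adjusted p up to 0.170). Of 29 surface markers of pluripotent and reprogramming cells 1 was higher, Podxl, and 4 lower (17.2%, median -0.05): Ly6g6e, Icam1, Pecam1 and Alpl. Ly6g6e fell by 1.28 ± 0.14 (SE) on the log2 scale (edgeR adjusted p = 2.77e-04), from 11.1, 11.2 and 11.1 CPM to 4.95, 4.49 and 4.34 CPM. Here losses were seen for Podxl without GC1, GC2, M1 or M3 (edgeR adjusted p up to 0.185). DESeq2 did not call Podxl (adjusted p = 0.0792).

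Imprinted genes are expressed from the copy of 1 parent. Of 48 tested 7 were higher, 0 lower and 41 did not pass (14.6%, median 0.22). Peg10, needed for the placenta, stood at 334, 359 and 377 CPM in GC1 to GC3 and 804, 617 and 772 CPM in M1 to M3, and rose by 1.04 ± 0.09 (SE) on the log2 scale (edgeR adjusted p = 3.69e-05). Nnat, a small membrane protein, rose by 0.69 ± 0.12 (SE) on the log2 scale (edgeR adjusted p = 0.00467), and Zdbf2 by 0.95 ± 0.19 (SE) on the log2 scale (edgeR adjusted p = 0.0130). Igf2, Cdkn1c, Plagl1 and Peg3 were called too. Peg3 overlapped between groups, with 139.7 CPM in GC3 and 131 CPM in M2. Calls were lost for Zdbf2 without M3, Igf2 without GC1, GC2, M2 or M3, Cdkn1c without GC1, GC2, GC3, M2 or M3, Plagl1 without GC2, GC3, M1, M2 or M3 and Peg3 without GC1, GC2, M1 or M3 (edgeR adjusted p up to 0.226). The count was 4 without GC1, 3 without GC2, 2 without M3 and 4 without both M2 and M3. The counts do not tell the parental copies apart.

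In the germ line and meiosis list 2 of 43 were higher and 3 lower (11.6%, median -0.09). Tex15, needed for silencing of transposons in male germ cells, rose by 1.38 ± 0.23 (SE) on the log2 scale (edgeR adjusted p = 0.00506), from 4.98, 5.66 and 7.21 CPM to 9.49, 18.5 and 18.5 CPM (GC, then M colonies), with M1 below M2 and M3. Ddx4, the germ cell helicase Vasa, rose by 0.52 ± 0.11 (SE) on the log2 scale (edgeR adjusted p = 0.0158). Stag3 and Smc1b, subunits of meiotic cohesin, fell (log2 change -0.37, edgeR adjusted p = 0.0132 and log2 change -0.52, edgeR adjusted p = 0.0132), as did Tdrd12, of the piRNA pathway (log2 change -0.54, edgeR adjusted p = 0.0357). Calls ended for Ddx4 without GC2, M2 or M3, Stag3 and Smc1b without GC2 or M3 and Tdrd12 without GC1, GC2, GC3, M2 or M3 (edgeR adjusted p up to 0.182). Without M2 and M3, Tex15 did not pass (adjusted p = 0.252).

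Chromatin lists held few calls. Of 32 DNA methylation and heterochromatin genes 3 were higher and 0 lower (9.38%, median 0.03): Tdg, described with its copy above, Dnmt3l, the cofactor of the de novo DNA methyltransferases, and Ehmt2, the histone H3 methyltransferase G9a. Ehmt2 was at 291, 291 and 269 CPM against 308, 475 and 495 CPM, so that M1 stood near the GC colonies and M2 and M3 well above. Calls were not kept for Ehmt2 without GC1, GC2, GC3, M2 or M3 and Dnmt3l without GC1, GC2, GC3, M1, M2 or M3 (edgeR adjusted p up to 0.191). Of 33 demethylases and trithorax genes 1 was higher, Jmjd1c (log2 change 0.44, edgeR adjusted p = 0.0466), and of 34 BAF and NuRD subunits 1 was lower, Mta3 (log2 change -0.28, edgeR adjusted p = 0.0328). Neither held in every leave-out, with losses of Jmjd1c without GC1, GC2, M2 or M3 and Mta3 without GC1, GC2, M1 or M3 (edgeR adjusted p up to 0.237). Replication-dependent histone genes had a median log2 change of -0.30 over 40 tested members with 0 called. Their RNAs lack a poly-A tail, so poly-A libraries hold them poorly.

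**Figure D5:**
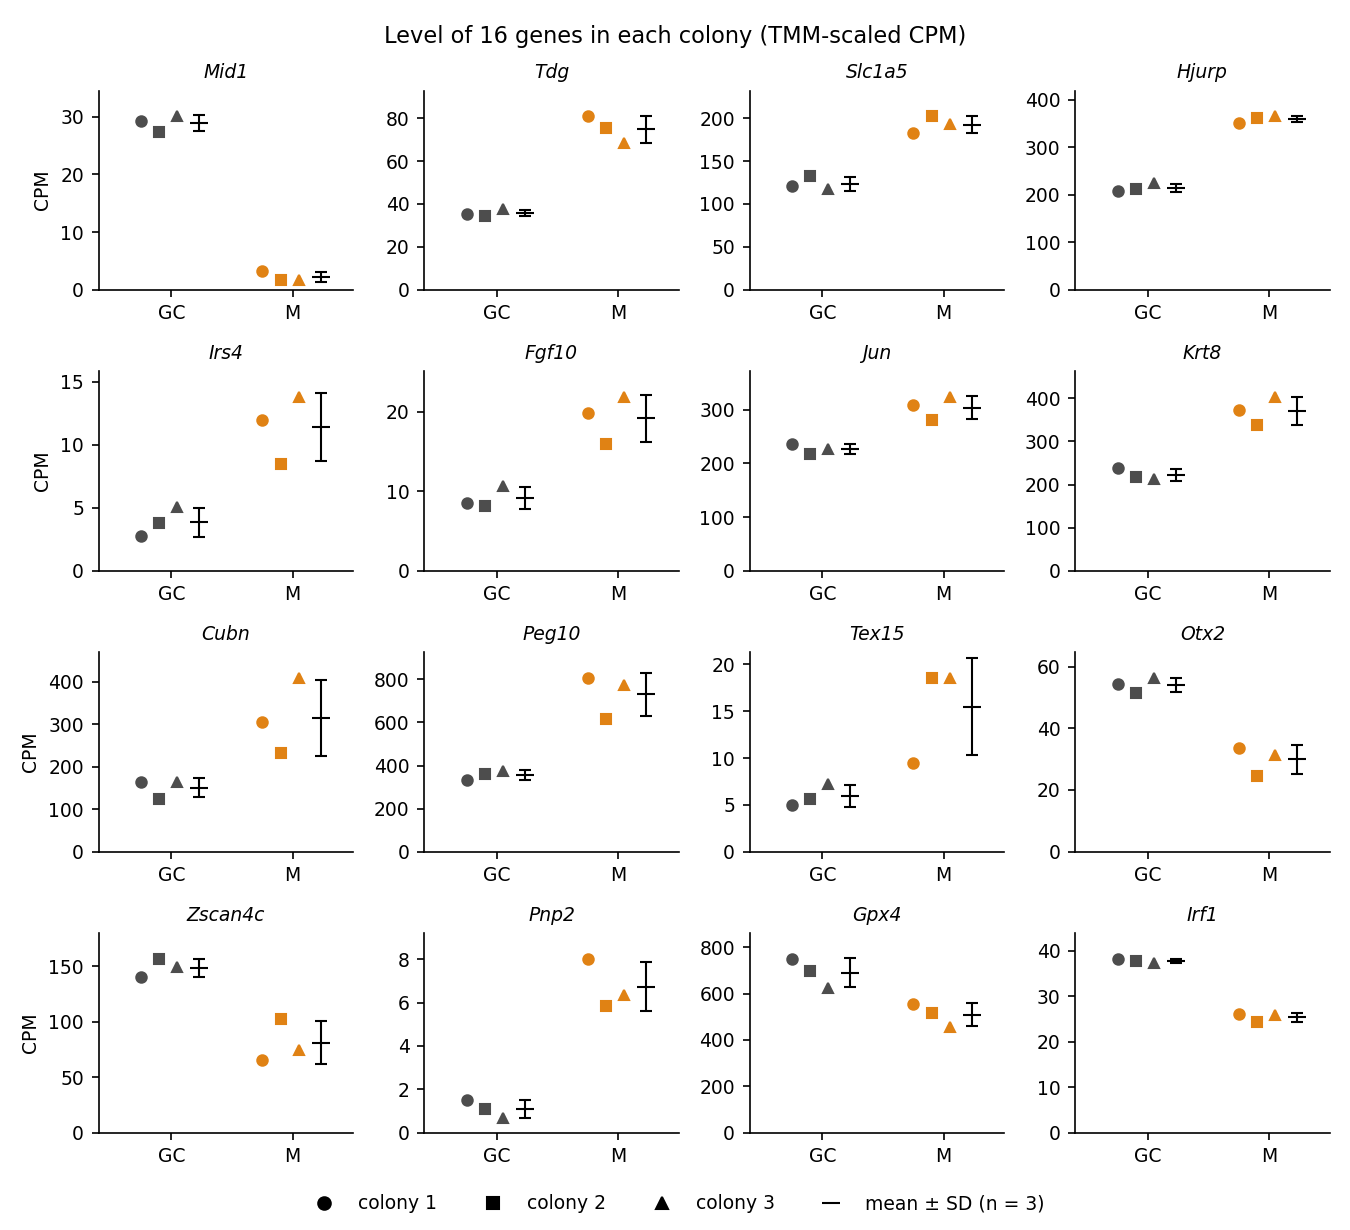
Each panel gives 1 gene, with the group on the x axis and its level in TMM-scaled CPM on the y axis; symbols are colonies 1 (circle), 2 (square) and 3 (triangle), and the bar beside them is the mean ± SD (n = 3). Mid1 and Pnp2 differ several-fold, Hjurp and Irf1 differ little but with narrow spread, and M2 lies towards the GC colonies for Cubn, Krt8 and Jun.

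Among metabolic lists, amino acid transporters had the highest share called. Of 27 amino acid transporters 4 were higher and 0 lower (14.8%, median 0.11). Slc1a5, the main glutamine carrier, stood at 120.5, 132 and 118 CPM in GC1 to GC3 and 183, 202 and 193 CPM in M1 to M3, and rose by 0.64 ± 0.07 (SE) on the log2 scale (edgeR adjusted p = 2.40e-04). Slc38a3, also a glutamine carrier, rose by 1.10 ± 0.15 (SE) on the log2 scale (edgeR adjusted p = 0.00120), and Slc7a8, an exchanger of neutral amino acids, by 1.13 ± 0.19 (SE) on the log2 scale (edgeR adjusted p = 0.00528). Slc7a6, its relative for basic amino acids, passed as well (log2 change 0.42, edgeR adjusted p = 0.0487). Losses were seen for Slc7a6 without GC1, GC2, M1 or M3 (edgeR adjusted p up to 0.247). Over the whole solute carrier family 17 of 281 tested genes were called, 9 higher and 8 lower (6.05%, median 0.01). Among the lower genes were the drug and cation exporters Slc47a1 and Slc47a2 (log2 change -0.74, edgeR adjusted p = 0.0164 and log2 change -1.38, edgeR adjusted p = 0.00437), Slc17a9, which loads ATP into vesicles (log2 change -0.80, edgeR adjusted p = 0.00412), and Slc28a1, a nucleoside importer (log2 change -0.48, edgeR adjusted p = 0.00819). Among these the call ended for Slc47a1 and Slc28a1 without GC2 or M3 (edgeR adjusted p up to 0.110).

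Central carbon metabolism held few calls, with the highest share in glycolysis. In glycolysis 1 of 24 was higher and 2 lower (12.5%, median 0.04). Ldhb, the lactate dehydrogenase subunit of heart type, fell by 0.37 ± 0.06 (SE) on the log2 scale (edgeR adjusted p = 0.00467), from 257, 246 and 244 CPM to 205, 184 and 190.3 CPM (GC, then M colonies). Pfkp, a phosphofructokinase, was lower and Pfkfb3, which makes its activator, higher (log2 change -0.31, edgeR adjusted p = 0.0480 and log2 change 0.35, edgeR adjusted p = 0.0397). The citric acid cycle had 1 of 24 lower, Idh2 (log2 change -0.35, edgeR adjusted p = 0.0233), the hypoxia list 1 of 26 higher, the oxygen sensor Egln1 (log2 change 0.29, edgeR adjusted p = 0.0274), and the pentose phosphate list 1 of 21 higher, the epimerase Rpe (log2 change 0.54, edgeR adjusted p = 0.00142). Of 32 fatty acid genes 2 were higher, the desaturase Scd2 (log2 change 0.33, edgeR adjusted p = 0.0105) and the acyl-CoA synthetase Acsl3 (log2 change 0.36, edgeR adjusted p = 0.0114). Calls ended for Pfkp without GC1, GC2, GC3, M1 or M3, Pfkfb3 without GC1, GC2, M2 or M3, Idh2 without GC1, GC2, M1 or M3, Egln1 without GC2, M1 or M3 and Scd2 and Acsl3 without GC2 or M3 (edgeR adjusted p up to 0.247).

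In nucleotide metabolism 2 of 27 purine genes were higher and 1 lower (11.1%, median 0.01), and 2 of 27 pyrimidine genes were lower (7.41%, median 0.01). Besides Pnp2, Nt5e (CD73), which makes adenosine outside the cell, was higher (log2 change 0.86, edgeR adjusted p = 0.0182). Prps1, which makes the ribose phosphate that both routes start from, fell by 0.41 ± 0.06 (SE) on the log2 scale (edgeR adjusted p = 0.00142), from 248, 242 and 235 CPM to 181, 185 and 179.9 CPM (GC, then M colonies). Dpys, of pyrimidine breakdown, fell by 1.59 ± 0.25 (SE) on the log2 scale (edgeR adjusted p = 0.00312), from 15.03, 13.5 and 13.8 CPM to 7.31, 3.43 and 3.29 CPM. Upp1, uridine phosphorylase, fell by 0.31 ± 0.07 (SE) on the log2 scale (edgeR adjusted p = 0.0214). Of 31 serine, glycine, threonine and folate genes Mtrr and Amt were lower (log2 change -0.30, edgeR adjusted p = 0.0285 and log2 change -0.29, edgeR adjusted p = 0.0431). Losses were found for Nt5e without GC1, GC2 or M3, Upp1 without GC1, GC2, M1 or M3, Mtrr without GC2, GC3, M1, M2 or M3 and Amt without GC1, GC2, GC3, M1 or M3 (edgeR adjusted p up to 0.219).

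Of 47 glutathione, thioredoxin and Nrf2 genes 4 were lower and 0 higher (8.51%, median 0.01). Gpx4, which repairs oxidized lipids and guards against ferroptosis, stood at 747, 697 and 624 CPM in GC1 to GC3 and 554, 516 and 457 CPM in M1 to M3, and fell by 0.44 ± 0.08 (SE) on the log2 scale (edgeR adjusted p = 0.00812). The others were glutathione transferases: Gstm2 (log2 change -0.68, edgeR adjusted p = 0.00970), Gstm1 (log2 change -0.39, edgeR adjusted p = 0.0262) and Gsta4 (log2 change -0.35, edgeR adjusted p = 0.0401). No one of the 4 was called throughout, with losses for Gpx4 without GC2 or M3, Gstm2 without GC2, Gstm1 without GC1, GC2, M1 or M2 and Gsta4 without GC1, GC2, M2 or M3 (edgeR adjusted p up to 0.201). Without GC2 none of this list was called, nor without both M2 and M3. Of 27 metal handling genes 2 were higher, the zinc carriers Slc30a1 (log2 change 0.39, edgeR adjusted p = 0.0283) and Slc39a14 (log2 change 0.33, edgeR adjusted p = 0.0318), and Steap3, a ferric reductase of endosomes, was lower (11.1%, median 0.02). Steap3 fell by 0.94 ± 0.13 (SE) on the log2 scale (edgeR adjusted p = 0.00138), from 31.1, 28.1 and 27.9 CPM to 17.4, 15.9 and 12.1 CPM (GC, then M colonies). The fit lost Slc30a1 without GC1, GC2, M2 or M3 and Slc39a14 without GC1, GC2, M1 or M2 (edgeR adjusted p up to 0.169).

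Changes in protein folding genes of the endoplasmic reticulum were small. Of 26 unfolded protein response genes 3 were higher and 0 lower (11.5%, median 0.15), and 24 of the 26 changes were positive. The 3 were the disulfide isomerases P4hb (log2 change 0.30, edgeR adjusted p = 0.0302) and Pdia3 (log2 change 0.29, edgeR adjusted p = 0.0463) and the chaperone Hspa5, known as BiP (log2 change 0.24, edgeR adjusted p = 0.0479). Calls ended for P4hb, Pdia3 and Hspa5 without GC1, GC2, M1 or M3 (edgeR adjusted p up to 0.257). None of the list was called without GC1, GC2, M1 or M3, 7 were called without GC3 and 5 without M2. The integrated stress response had 1 of 22 higher, Ppp1r15a, the proteasome 1 of 37, Psmb5, and autophagy and lysosome 3 of 38 (7.89%, median 0.06): Ctsc, Neu1 and Ctsl. Ctsc, a lysosomal protease, rose by 0.92 ± 0.14 (SE) on the log2 scale (edgeR adjusted p = 0.00228), from 32.3, 25.5 and 34.5 CPM to 57.6, 47.7 and 70.0 CPM (GC, then M colonies). Calls were not kept for Ppp1r15a without GC1, GC2, M1, M2 or M3, Neu1 without GC2 or M3 and Ctsl without GC1, GC2, GC3, M1 or M3 (edgeR adjusted p up to 0.220).

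Cell division lists held 1 call with a narrow spread. Of 38 centromere and kinetochore genes Hjurp was higher and Cenpt lower (5.26%, median -0.01). Hjurp, the chaperone that places the centromeric histone CENP-A, stood at 208, 211 and 225 CPM in GC1 to GC3 and 352, 362 and 365 CPM in M1 to M3, and rose by 0.74 ± 0.06 (SE) on the log2 scale (edgeR adjusted p = 1.49e-05). Cenpt, which links the centromere to the kinetochore, changed by -0.31 on the log2 scale. Haus4, a subunit of augmin, which branches spindle microtubules, rose by 0.80 ± 0.07 (SE) on the log2 scale (edgeR adjusted p = 7.01e-05), from 43.6, 40.4 and 39.1 CPM to 75.2, 70.9 and 69.0 CPM (GC, then M colonies). Of 36 cyclin, CDK and E2F genes 2 were higher, Cdkn1c and E2f8 (log2 change 0.35, edgeR adjusted p = 0.0438), and of 44 DNA repair genes 1 was lower, the cytidine deaminase Apobec3, which fell by 0.41 ± 0.06 (SE) on the log2 scale (edgeR adjusted p = 0.00329). Calls ended for Cenpt without GC1, GC2, M1 or M3, Cdkn1c without GC1, GC2, GC3, M2 or M3 and E2f8 without GC1, GC2, M1, M2 or M3 (edgeR adjusted p up to 0.249).

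Called interferon genes were all lower. Of 37 interferon response and RNA sensing genes 0 were higher and 3 lower (8.11%, median -0.21). Irf1, an interferon-induced transcription factor, stood at 38.1, 37.7 and 37.2 CPM in GC1 to GC3 and 26.02, 24.3 and 25.8 CPM in M1 to M3, and fell by 0.57 ± 0.08 (SE) on the log2 scale (edgeR adjusted p = 0.00193). Ifitm1, a membrane protein that blocks virus entry, fell by 0.66 ± 0.12 (SE) on the log2 scale (edgeR adjusted p = 0.0105), and Zbp1, a sensor of nucleic acids, by 1.12 ± 0.26 (SE) on the log2 scale (edgeR adjusted p = 0.0310). Ddx60, an RNA helicase of the same response, fell by 1.33 ± 0.22 (SE) on the log2 scale (edgeR adjusted p = 0.00414). Losses were seen for Ifitm1 without GC2 or M3 and Zbp1 without GC1, GC2, M2 or M3 (edgeR adjusted p up to 0.159). Of 25 antigen presentation genes Pdia3 alone passed (4%).

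B cell genes were low in all colonies. Of 24 B cell identity genes 11 had enough counts to test, and 1 was lower, Cd37, a tetraspanin, at 15.4, 14.3 and 14.3 CPM against 7.28, 8.71 and 6.96 CPM (GC, then M colonies), by 0.94 ± 0.13 (SE) on the log2 scale (edgeR adjusted p = 0.00164). The list's median was -0.36 and its summed level was 40.6 to 44.3 CPM in GC and 28.9 to 30.4 CPM in M colonies. Ms4a1, a B cell surface protein, had 2 counts in M2 and 0 in the other colonies. The B cell markers Cd79a and Cd79b were not as low, at 42 to 108 and 48 to 79 counts a library. Of 23 genes of the germinal center B cell list Efnb1 and Basp1 were higher and Icam1 lower (13%, median 0.10). Efnb1, an ephrin, rose by 0.60 ± 0.11 (SE) on the log2 scale (edgeR adjusted p = 0.00630), and Icam1, an adhesion ligand, fell by 0.45 ± 0.07 (SE) on the log2 scale (edgeR adjusted p = 0.00294). T cell markers gave 1 lower of 6 tested, the kinase Zap70 (log2 change -0.65, edgeR adjusted p = 0.0207), and myeloid markers 1 higher of 13, Lyz2 (log2 change 0.71, edgeR adjusted p = 0.0459). Calls ended for Basp1 without GC2 or M3, Zap70 without GC1, GC2, M2 or M3 and Lyz2 without GC1, GC2, M1, M2 or M3 (edgeR adjusted p up to 0.226). Ptprc, found on all white blood cells, had at most 8 counts in a library.

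Sex-linked genes were read by colony. Eif2s3y, a translation factor on chromosome Y, stood at 66.4, 58.8 and 69.8 CPM in GC1 to GC3 and 62.7, 0 and 0 CPM in M1 to M3, and Ddx3y, an RNA helicase, at 48.0, 38.7 and 47.1 CPM in GC1 to GC3 and 50.02, 0 and 0 CPM in M1 to M3. The M group was thus split, and neither passed the test (log2 change -1.64, edgeR adjusted p = 0.497 and log2 change -1.42, edgeR adjusted p = 0.566). Xist, the RNA that silences 1 X in female cells, was at 9.80, 13.5 and 16.3 CPM against 13.3, 12.7 and 10.96 CPM and did not follow this split. Of 651 tested X-linked genes 32 were called, 18 higher and 14 lower (4.92%, median 0.04). Without Y-linked genes in the fit 736 genes were called.

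By position, some called genes lay side by side. The nearest tested neighbour was called too for 80 of 721 called genes (11.1%), against 3.57% of all 18163 placed genes. Of 536 windows of 5 Mb with a tested gene, 34 held at least 5 called genes. On chromosome 12 the window chr12:85000001-90000000 held 14 called of 70 tested, all lower, the 2-cell-like copies around Gm2016 and Gm8300. The Zscan4 window, chr7:10000001-15000000, held 8 of 41, all lower, and chr13:120000001-125000000, with Tcstv3 and BC147527, held 5 of 9, all lower. Tmem92 and its neighbours in chr11:90000001-95000000 made 5 of 37, again all lower. Other windows were mixed, such as chr14:50000001-55000000 with 8 of 64, where Pnp2, Haus4, Psmb5, Slc7a8 and Mmp14 were higher and Ccnb1ip1, Ttc5 and Ndrg2 lower. The window's calls ended for Mmp14 without GC1, GC2, M1, M2 or M3, Ttc5 without GC2 or M3, Ndrg2 without GC1, GC2, M1 or M3 and Psmb5 without GC2 (edgeR adjusted p up to 0.220). By chromosome the share called ran from 2.57% on chromosome 2 to 6.27% on chromosome 14, apart from chromosome Y with 1 of 10.

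Grouped by the stem of the gene symbol, the protein-coding families with the most calls were the large ones, Slc (17 of 281) and Zfp zinc fingers (10 of 367, 3 higher and 7 lower, 2.72%). Shares well above 3.97% were in Zscan (7 of 19, all lower), Krt (5 of 15, 4 higher and 1 lower), Klf (4 of 17, 2 each way) and the Dusp phosphatases (4 of 22, 3 higher and 1 lower). Of 73 Atp genes, which encode ion pumps and ATP synthase parts, 1 was higher and 4 lower. The Klf family, transcription factors that share targets in stem cells, thus had Klf4 and Klf6 up and Klf2 and Klf15 down. Each of these 4 calls was lost in some leave-out, namely Klf4 without GC2, Klf6 without GC1, GC2 or M3, Klf2 without GC1, GC2, M2 or M3 and Klf15 without GC1, GC2, GC3, M1 or M2 (edgeR adjusted p up to 0.200).

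The protein-coding genes with the largest changes came from many pathways. Among those higher, Irs4, Dkk1, Tagap1 and Pnp2 are described above. Nlrp4f, of a family expressed in oocytes, stood at 2.55, 2.74 and 3.04 CPM against 3.38, 15.8 and 15.4 CPM (GC, then M colonies), so that M1 was near the GC colonies. Leave-outs ended the call of Nlrp4f without GC1, GC2 or M3 (edgeR adjusted p up to 0.101). Trpm6, a magnesium channel, rose by 1.32 ± 0.22 (SE) on the log2 scale (edgeR adjusted p = 0.00510). Muc13, a mucin of gut epithelium, Prss12, a secreted protease, and Dgkk, a lipid kinase, were also among them (log2 change 1.37, edgeR adjusted p = 0.0264, log2 change 1.33, edgeR adjusted p = 0.0236 and log2 change 1.16, edgeR adjusted p = 0.0102). Calls were not kept for Muc13 without GC1, GC2, M1 or M3, Prss12 without GC2, M1 or M3 and Dgkk without GC2 or M3 (edgeR adjusted p up to 0.147). On the lower side Mobp, a protein of myelin, stood at 9.88, 10.2 and 9.77 CPM against 2.98, 3.31 and 2.30 CPM, and fell by 1.79 ± 0.17 (SE) on the log2 scale (edgeR adjusted p = 9.85e-05). Gm364 on chromosome X and Ccnb1ip1, a ubiquitin ligase of meiotic crossing over, fell by 1.82 ± 0.20 (SE) on the log2 scale (edgeR adjusted p = 2.73e-04) and 1.25 ± 0.13 (SE) on the log2 scale (edgeR adjusted p = 2.36e-04). Mmrn2, a matrix protein of blood vessels, fell by 1.36 ± 0.19 (SE) on the log2 scale (edgeR adjusted p = 0.00142). Dmtn, which bundles actin under the membrane, fell by 0.79 ± 0.07 (SE) on the log2 scale (edgeR adjusted p = 4.10e-05), with GC colonies at 80.5 to 82.3 CPM and M colonies at 44.9 to 49.5 CPM.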

How the data were processed

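Poly-A RNA-seq of 6 mouse iPSC cultures was used. The values deposited by the authors are raw counts per Ensembl gene, without normalization. Per the submitters' processing notes, STAR 2.7.10a, featureCounts 2.0.6, DESeq2 and the build mm10 (GRCm38) were used; the sources disagree on the kit (directional or not) and sequencer, and give no strand setting. Gene names and positions came from GENCODE M21 (54809 of 54838 genes matched). Genes were filtered with filterByExpr, TMM-scaled, then compared by the two-sided quasi-likelihood test in edgeR 4.0.16 (R 4.3.3), with Benjamini-Hochberg adjustment over 18166 genes and a threshold of 0.05. The SE is the log2 change over the square root of F. CPM are counts per 1000000 of the TMM-scaled library. The test was first tested on simulated data. Alternatives were DESeq2 1.42.0, voom in limma 3.58.1, DESeq2 size factors, other filters, the colony number as a block, and left-out colonies. Pseudogene transcripts were matched to parents with blastn 2.17.0. Named genes are the 15 with the smallest adjusted p in each direction, the 15 protein-coding genes with the largest change each way at a mean of at least 5 CPM, up to 4 called members per list, reprogramming and Y-linked genes, called genes of families with at least 10 tested and 3 called members, and called genes of 5 Mb windows with at least 5; others were chosen after their values were seen. Members and gene lists were chosen with earlier results of these data known. Some items are not reported here.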

Additional observations from a re-analysis of the deposited data

How the results depend on the processing

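Of 721 called genes, 308 higher and 413 lower in M colonies, DESeq2 gave 1100, with 532 higher, and no low-count filter gave 1318, with 656 higher and 662 lower. Voom gave 709, DESeq2 size factors 721, a filter of 1 CPM in 3 libraries 716 and the fit without Y-linked genes 736. Leaving out 1 colony gave 244 (without GC2) to 814 called, 88 to 419 higher and 156 to 419 lower. Without both M2 and M3 there were 373, of which 161 were higher and 212 lower. Called list members, 173 in all, numbered 307 without the low-count filter, 64 to 204 with 1 colony left out and 108 without M2 and M3. With the colony number as a block 963 were called, 451 of them higher; the labels do not say that a number pairs colonies, and the correlations of same-numbered deviations were 0.0729, 0.075 and 0.164, although every colony correlated best with its own number, which is a hint from the data and not the design. Of 379 named calls 150 held in 6 of 6 leave-outs, 218 were lost without GC2 and 207 without M3. None changed sign, which a lack of overlap between groups all but fixes in advance. These fits hold fewer libraries, and the cause of the losses was not tested.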

Other observations

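Some groups outside the lists were looked at after their values were seen, and are given as counts without a test, beside 3.97% called of all tested genes. Ephrins and their receptors, which signal between touching cells, had 5 of 20 tested genes called: Epha2, Efnb1, Efnb2 and Epha1 were higher in M colonies and Efnb3 was lower (log2 change 0.45, edgeR adjusted p = 0.0328, log2 change 0.54, edgeR adjusted p = 0.0341 and log2 change -0.64, edgeR adjusted p = 0.0367). Calls ended for Efnb2 without GC1, GC2, GC3, M1 or M3, Epha1 without GC1, GC2, M1 or M3 and Efnb3 without GC1, GC2, GC3, M1, M2 or M3 (edgeR adjusted p up to 0.186). Aquaporins, the water and glycerol channels, had 3 of 7 called. Aqp3 fell by 0.88 ± 0.12 (SE) on the log2 scale (edgeR adjusted p = 0.00111), from 29.1, 33.5 and 29.6 CPM to 14.9, 15.6 and 19.5 CPM (GC, then M colonies), Aqp9 was lower (log2 change -0.79, edgeR adjusted p = 0.0116) and Aqp8 higher (log2 change 0.92, edgeR adjusted p = 0.0125). For the aquaporins the losses were Aqp9 without GC1, GC2 or M3 and Aqp8 without GC2 or M3 (edgeR adjusted p up to 0.0812). Axonemal dyneins, the motors of moving cilia, had 3 of 16 called, all lower: Dnah7c, Dnaic1 and Dnaic2. Platr transcripts, noncoding RNAs named for their link to pluripotency, had 3 of 22 called, all lower, with a median log2 change of -0.32: Platr14, Platr7 and Platr17. Lncenc1, a noncoding RNA abundant in naive stem cells, stood at 283, 303 and 286 CPM in GC1 to GC3 and 219.6, 205 and 182 CPM in M1 to M3, and fell by 0.52 ± 0.07 (SE) on the log2 scale (edgeR adjusted p = 0.00142). Of these noncoding and dynein genes the call ended for Platr7 and Dnah7c without GC2 or M3, Platr17 without GC1, GC2, M2 or M3, Dnaic1 without GC1, GC2, GC3, M1 or M2 and Dnaic2 without GC1, GC2, M1 or M3 (edgeR adjusted p up to 0.249).

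A few genes were also named after their values were seen. Vwf, the clotting factor of endothelium, fell by 1.11 ± 0.14 (SE) on the log2 scale (edgeR adjusted p = 6.94e-04), from 13.2, 15.1 and 14.6 CPM to 7.62, 6.33 and 5.88 CPM, and Tie1, an endothelial receptor, by 1.04 ± 0.23 (SE) on the log2 scale (edgeR adjusted p = 0.0269), while the receptor Flt1 rose by 0.51 ± 0.10 (SE) on the log2 scale (edgeR adjusted p = 0.0126). Losses were seen for Tie1 and Flt1 without GC1, GC2 or M3 (edgeR adjusted p up to 0.152). Jak3, a kinase of cytokine receptors in blood cells, fell by 0.80 ± 0.11 (SE) on the log2 scale (edgeR adjusted p = 0.00195), from 61.6, 65.0 and 64.4 CPM to 44.4, 35.4 and 30.1 CPM. Ide, a protease that degrades insulin, rose by 0.53 ± 0.06 (SE) on the log2 scale (edgeR adjusted p = 4.14e-04), and Ror2, a Wnt5a receptor, by 0.90 ± 0.10 (SE) on the log2 scale (edgeR adjusted p = 3.44e-04).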
